A study of Mus musculus with 29 samples.

Results

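The genes described here are the immediate early genes and the stress genes that are known to rise when tissue is taken apart into single cells. They were chosen by name, as a list of 43 symbols, and 39 of these are among the 23930 genes of the expression table. *Hspa8*, *Hsp90aa1*, *Dnaja1* and *Zfp36l1* were not analysed here. The 39 genes are described by class, as 9 subunits of AP-1 and related leucine-zipper factors, 11 other transcription factors and nuclear regulators, 6 immediate early response genes and MAP kinase phosphatases, 3 regulators of mRNA decay, 4 heat shock genes and 6 stress and growth-arrest genes.

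The genes were measured in 29 RNA-seq libraries of macrophages sorted from wild-type C57BL/6 mice and from mice that lack both copies of the RNase T2 gene, *Rnaset2a* and *Rnaset2b*, on the C57BL/6 background (*Rnaset2*-/- mice). RNase T2 is a lysosomal nuclease, and the study asked how splenic and hepatic macrophages differ in its absence. Spleen gave Ly6Chi macrophages from wild-type mice (3 libraries) and from *Rnaset2*-/- mice (3 libraries), and Ly6Clow macrophages from wild-type mice (3 libraries) and from *Rnaset2*-/- mice (4 libraries). Liver gave 3 libraries each of Ly6Chi and Ly6Clow macrophages from either genotype, and 4 libraries of Kupffer cells (KCs), the resident macrophages of the liver sinusoids, from wild-type mice only. Ly6Chi and Ly6Clow macrophages were gated by their level of Ly6C among CD11b(+) cells negative for Ly6G, Siglec-F and NK1.1, the Ly6Clow cells also by Fcgr4, and KCs were gated as F4/80(+), CD11b(int), Tim4(+) and PDCA-1 low. The deletion is not limited to macrophages. Ages are not given in the sources used here, and nothing in them says whether libraries of a group came from separate mice, so p-values measure the spread between these libraries. Livers were dissociated in a heated mechanical device and spleens were crushed between glass slides, so organ and dissociation cannot be told apart.

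Immediate early genes are transcribed within minutes of a stimulus, without new protein synthesis, from promoters that serum response factor and CREB hold ready for kinase signals. Most encode transcription factors, among them Fos and Jun proteins, which pair to form AP-1, and others encode the phosphatases and mRNA-decay factors that end the response. Their mRNAs are short-lived. Heat shock factors switch on chaperone genes such as those for HSP70, and the integrated stress response acts through ATF4. In macrophages the same genes rise after Toll-like receptor ligands, after adhesion and during warm enzymatic or mechanical dissociation, which is why they are read as a sign of handling as well as of activation.

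The deposited unit was RPM, which scales the reads of each library to the same total, from an amplicon panel that counts each gene on its own amplicon, so levels are compared between libraries and not between genes. The libraries held 11175843 to 21167602 reads, and 3 reads, taken as the floor of detection, were worth 0.142 to 0.268 RPM. The rows of *Rnaset2a*, *Rnaset2b* and the *Ly6c* genes, which would check the labels, were not analysed here. All 6 hepatic *Rnaset2*-/- libraries held RNA of 4 Y-linked genes (150 to 291 RPM in sum) and at most 0.154 RPM of *Xist*, the RNA of the inactive X chromosome, whereas the hepatic wild-type Ly6Chi and Ly6Clow libraries held 321 to 539 RPM of *Xist*. Genotype and sex therefore cannot be told apart in the liver. Replicates 2 and 3 of both hepatic wild-type Ly6C groups also held 28.95 to 52.03 RPM of Y-linked RNA, and 1 of the splenic *Rnaset2*-/- Ly6Clow libraries (replicate 2) held 301 RPM with 0.781 RPM of *Xist*. Counts of called members are also given for only replicate 1 of the hepatic wild-type groups and without that splenic library. Replicate 1 of hepatic *Rnaset2*-/- Ly6Chi macrophages stood apart, with a chi-square of recovered reads per gene of 192 and 197 against replicates 2 and 3, which differed from each other by 23.4. Replicate 1 of splenic *Rnaset2*-/- Ly6Clow macrophages differed by 151 and 147 from replicates 3 and 4, which differed by 14.5, and by 65.2 from replicate 2. Replicate 1 of hepatic *Rnaset2*-/- Ly6Clow macrophages differed by 115 and 145 from replicates 2 and 3, which differed by 55.4, and KC replicate 3 by 76.9 to 98.5 from the other KC libraries, which differed by 25.4 to 56.8. The 12 general macrophage markers were present in every group (sum of 5779 to 38484 RPM per library), and the 10 KC markers summed to 7766 to 20708 RPM in KCs.

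Promoter sequence is shown first, for the members whose window holds an element that links this class of genes to its upstream kinases. Windows of 250 bases before to 50 bases after the transcription start were taken from RefSeq (GRCm38.p6) and matched by symbol for 33 of the 39 genes. *Egr1*, *Egr3*, *Ier2*, *Myc*, *Klf10* and *Fosl1* had no entry under these symbols in the set of windows used here. The full cyclic AMP response element, TGACGTCA, on which CREB and ATF proteins bind, was found in the windows of *Dusp1*, *Btg2*, *Ppp1r15a* and *Maff*. It is in capitals in the 3 stretches below, which cover chr17:26508572-26508651, chr1:134079278-134079357 and chr7:45526269-45526348, all on the minus strand and all before the start.
*Dusp1*: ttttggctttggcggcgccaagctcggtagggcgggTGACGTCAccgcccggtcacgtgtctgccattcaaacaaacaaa
*Btg2*: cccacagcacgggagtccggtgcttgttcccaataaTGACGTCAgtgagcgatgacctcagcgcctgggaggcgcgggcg
*Ppp1r15a*: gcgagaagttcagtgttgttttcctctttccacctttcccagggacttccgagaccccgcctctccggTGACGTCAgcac

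Serum response factor binds the CArG box, and this motif was found in the windows of *Zfp36*, *Dusp5* and *Egr2*. The stretches of *Zfp36* (chr7:28379242-28379321, minus strand) and *Dusp5* (chr19:53529038-53529117, plus strand) are shown with the box in capitals, and that of *Dusp5* holds 2 boxes side by side.
*Zfp36*: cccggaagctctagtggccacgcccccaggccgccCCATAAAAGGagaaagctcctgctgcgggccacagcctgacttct
*Dusp5*: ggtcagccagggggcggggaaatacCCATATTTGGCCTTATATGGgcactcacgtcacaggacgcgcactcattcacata

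The shorter core of the cyclic AMP response element, TGACG or its complement CGTCA, is in capitals in *Fos* (chr12:85473786-85473865, plus strand) and *Atf3* (chr1:191183334-191183413, minus strand).
*Fos*: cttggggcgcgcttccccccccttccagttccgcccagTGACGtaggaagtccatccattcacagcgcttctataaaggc
*Atf3*: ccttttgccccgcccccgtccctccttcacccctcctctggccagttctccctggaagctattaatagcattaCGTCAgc

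Both strands were searched, and a gene was counted when any of its windows held the motif. TGACGTCA occurred in 4 of the 33 genes (12.1%) and in 2.03% of all 27025 genes of the RefSeq table. TGACG, which every full element also contains, occurred in 20 of the 33 genes (60.6%) against 23.1% of all genes. The CArG box occurred in 3 genes (9.09%) against 1.81%, and an EGR site (GCGGGGGCG or GCGTGGGCG) in 7 genes (21.2%) against 3.93%. The AP-1 site TGANTCA occurred only in *Csrnp1*, 1 of the 33 genes (3.03%), against 8.97% of all genes. A heat shock element of 3 alternating GAA and TTC units with NN between them occurred only in *Hsph1* (3.03% against 0.662%). Among the 27 members with 1 window, the counts in this order were 3, 15, 2, 6, 0 and 0. Among all genes with 1 window, the shares were 1.85%, 20.6%, 1.53%, 3.33%, 7.98% and 0.503%. These matches describe letters in a window and were not tested against the expression values.

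The whole set of members took up a different share of the reads in each group. The 39 genes together accounted for 3.62 to 4.21% of all reads in the 3 libraries of hepatic wild-type Ly6Chi macrophages and for 3.06 to 4.47% in hepatic wild-type Ly6Clow macrophages. In *Rnaset2*-/- mice the share was 0.683 to 1.05% in hepatic Ly6Chi and 0.279 to 0.334% in hepatic Ly6Clow macrophages. KCs held 0.468 to 0.628%. In spleen the share lay at 2.21 to 2.23% in wild-type Ly6Chi, 1.20 to 1.53% in *Rnaset2*-/- Ly6Chi, 1.88 to 2.40% in wild-type Ly6Clow and 1.84 to 2.19% in *Rnaset2*-/- Ly6Clow macrophages. The genotypes did not overlap in either hepatic subset or in splenic Ly6Chi macrophages, and overlapped in splenic Ly6Clow macrophages. An exact permutation test of 3 libraries against 3 cannot give a p below 0.1, so these shares are given as a description. In mixed RNA from sorted cells, fewer cells that express a gene and less of its RNA per cell cannot be told apart.

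**Figure D1:**
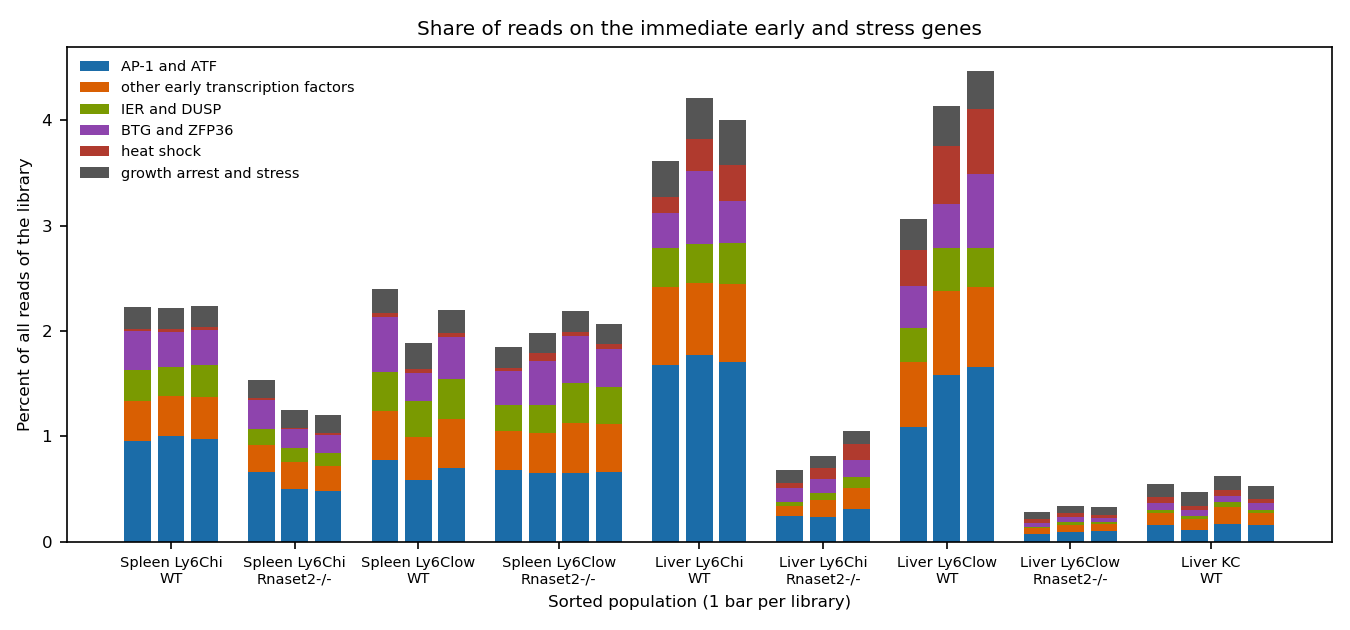
Share of all reads of a library on the 39 immediate early and stress genes (%, vertical axis), with a stacked bar for each of the 29 libraries by group and a color for each of the 6 gene classes. The hepatic wild-type Ly6Chi (3.62 to 4.21%) and Ly6Clow (3.06 to 4.47%) bars stand above all others, and the hepatic *Rnaset2*-/- Ly6Clow bars are lowest (0.279 to 0.334%).

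By group mean, 29 of the 39 genes were highest in a wild-type hepatic Ly6C group, 18 of them in Ly6Chi and 11 in Ly6Clow macrophages. The other members were highest in spleen, except *Myc*, which was highest in KCs. *Fosb* and *Klf6* were highest in splenic wild-type Ly6Chi, *Dusp1*, *Dusp5*, *Btg1* and *Sgk1* in splenic wild-type Ly6Clow, and *Klf2*, *Klf4* and *Dusp2* in splenic *Rnaset2*-/- Ly6Clow macrophages. The lowest mean of 29 genes was in hepatic *Rnaset2*-/- Ly6Clow macrophages. All genes were not ranked in this way, so these counts describe the members without a share of all genes to set beside them.

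**Figure D2:**
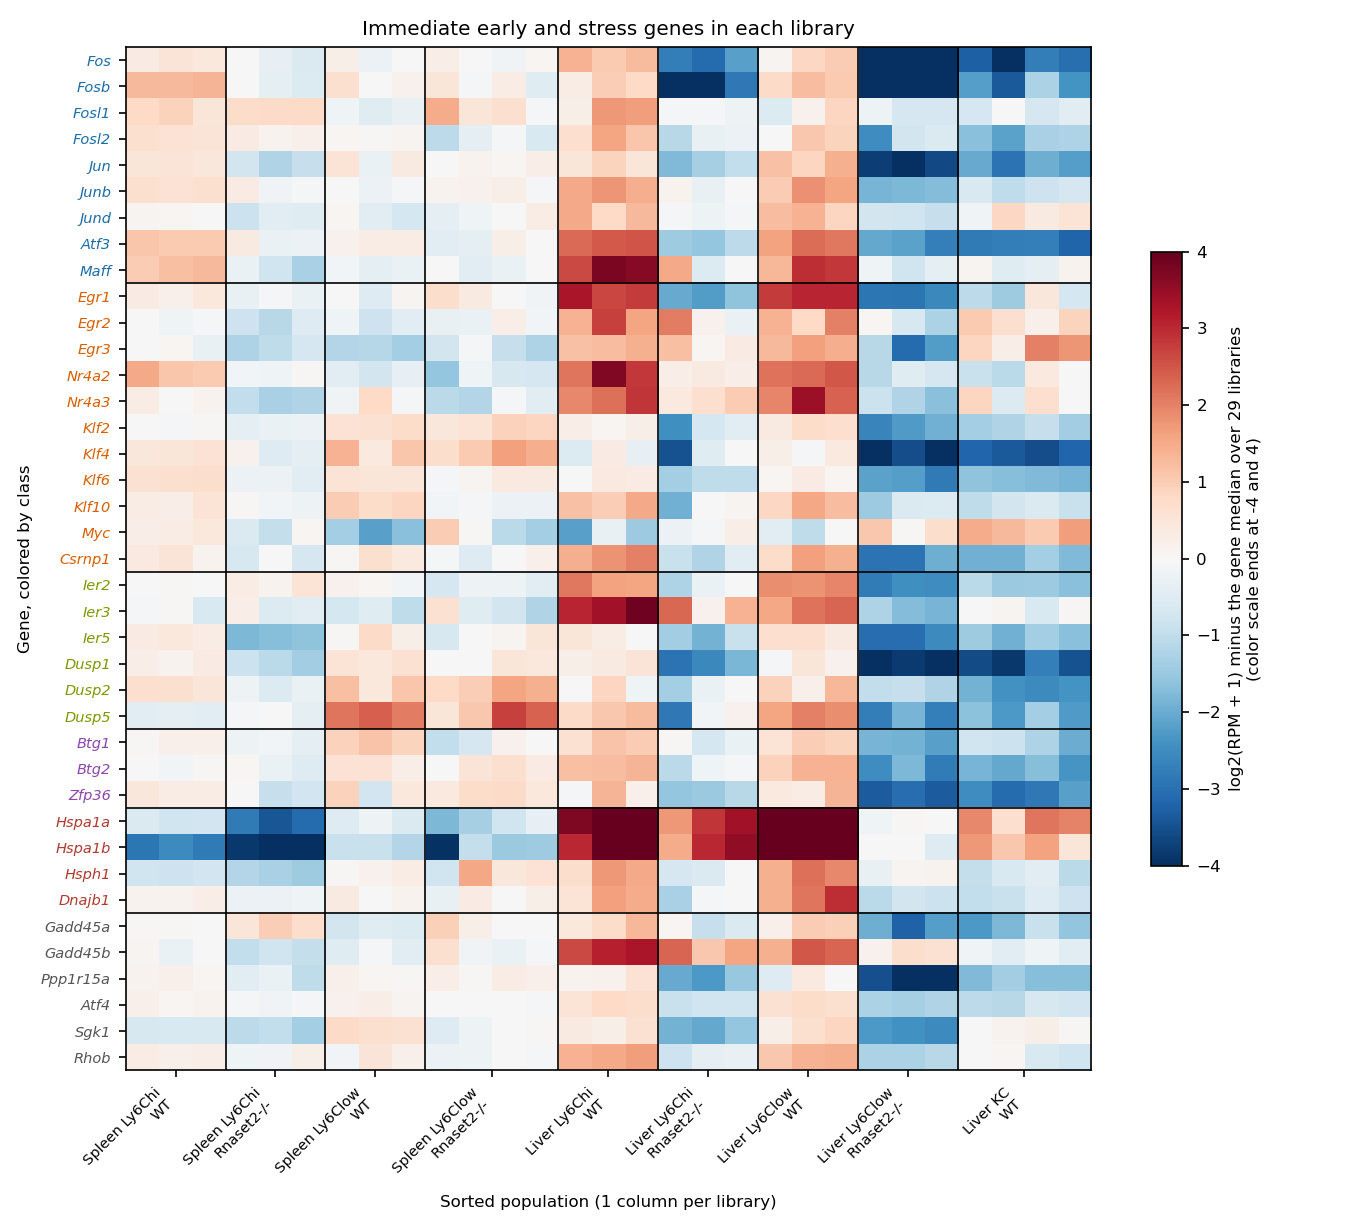
Level of each of the 39 genes (rows, colored and divided by class) in each of the 29 libraries (columns, by group), as log2(RPM + 1) minus that gene's median over the libraries, with the color scale ending at -4 and 4. Red cells fill most rows of hepatic wild-type Ly6Chi and Ly6Clow macrophages, and blue cells most rows of hepatic *Rnaset2*-/- Ly6Clow macrophages, where 29 genes have their lowest mean.

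Hepatic macrophages of *Rnaset2*-/- and wild-type mice were compared first, to ask how the loss of RNase T2 goes with these genes in the organ where the share differed most. In Ly6Chi macrophages 33 of 38 members tested were lower in *Rnaset2*-/- mice and none was higher, with a median log2 fold change over the members of -2.01. In Ly6Clow macrophages 37 of 38 were lower and 1, *Myc*, was higher, with a median of -3.40. A gene was called here when limma's moderated test on log2(RPM + 1), after relative log expression scaling, gave >1.5-fold and an adjusted p below 0.05 (Benjamini-Hochberg over all genes tested). Among all genes tested, 15.7% were called higher and 14.9% lower in Ly6Chi macrophages, and 20.2% higher and 22.5% lower in Ly6Clow macrophages. At an unadjusted p below 0.05, 1 member was higher in Ly6Chi macrophages, and DESeq2 and edgeR called none higher there. *Fosl1*, which encodes the Fos-family protein FRA-1, was too low to be tested, at 0.849 to 4.25 RPM in wild-type and 0.385 to 0.541 RPM in *Rnaset2*-/- Ly6Chi libraries. Every *Rnaset2*-/- library lay below every wild-type library for 33 of the 39 genes in Ly6Chi macrophages (14.2% of all genes tested) and for 37 in Ly6Clow macrophages (27.1%). The median over all genes moved by 0.29 on the log2 scale in Ly6Chi macrophages when RPM were taken as deposited, and 30 members were then called lower in Ly6Chi and 37 in Ly6Clow macrophages. With only replicate 1 of each wild-type group, which held no Y-linked RNA, and the lone library taken to vary like the other groups, 29 members were lower and 1 higher in Ly6Chi, and 35 lower and none higher in Ly6Clow macrophages. The Ly6Chi calls of *Dusp2*, *Dusp5*, *Gadd45a* and *Hspa1a* and the Ly6Clow calls of *Fosl2*, *Gadd45b* and *Myc* were then lost. Without the *Rnaset2*-/- Ly6Chi library that stood apart, 35 members were lower in Ly6Chi macrophages, and without *Rnaset2*-/- Ly6Clow replicate 1, 37 were lower and none higher in Ly6Clow macrophages.

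**Figure D3:**
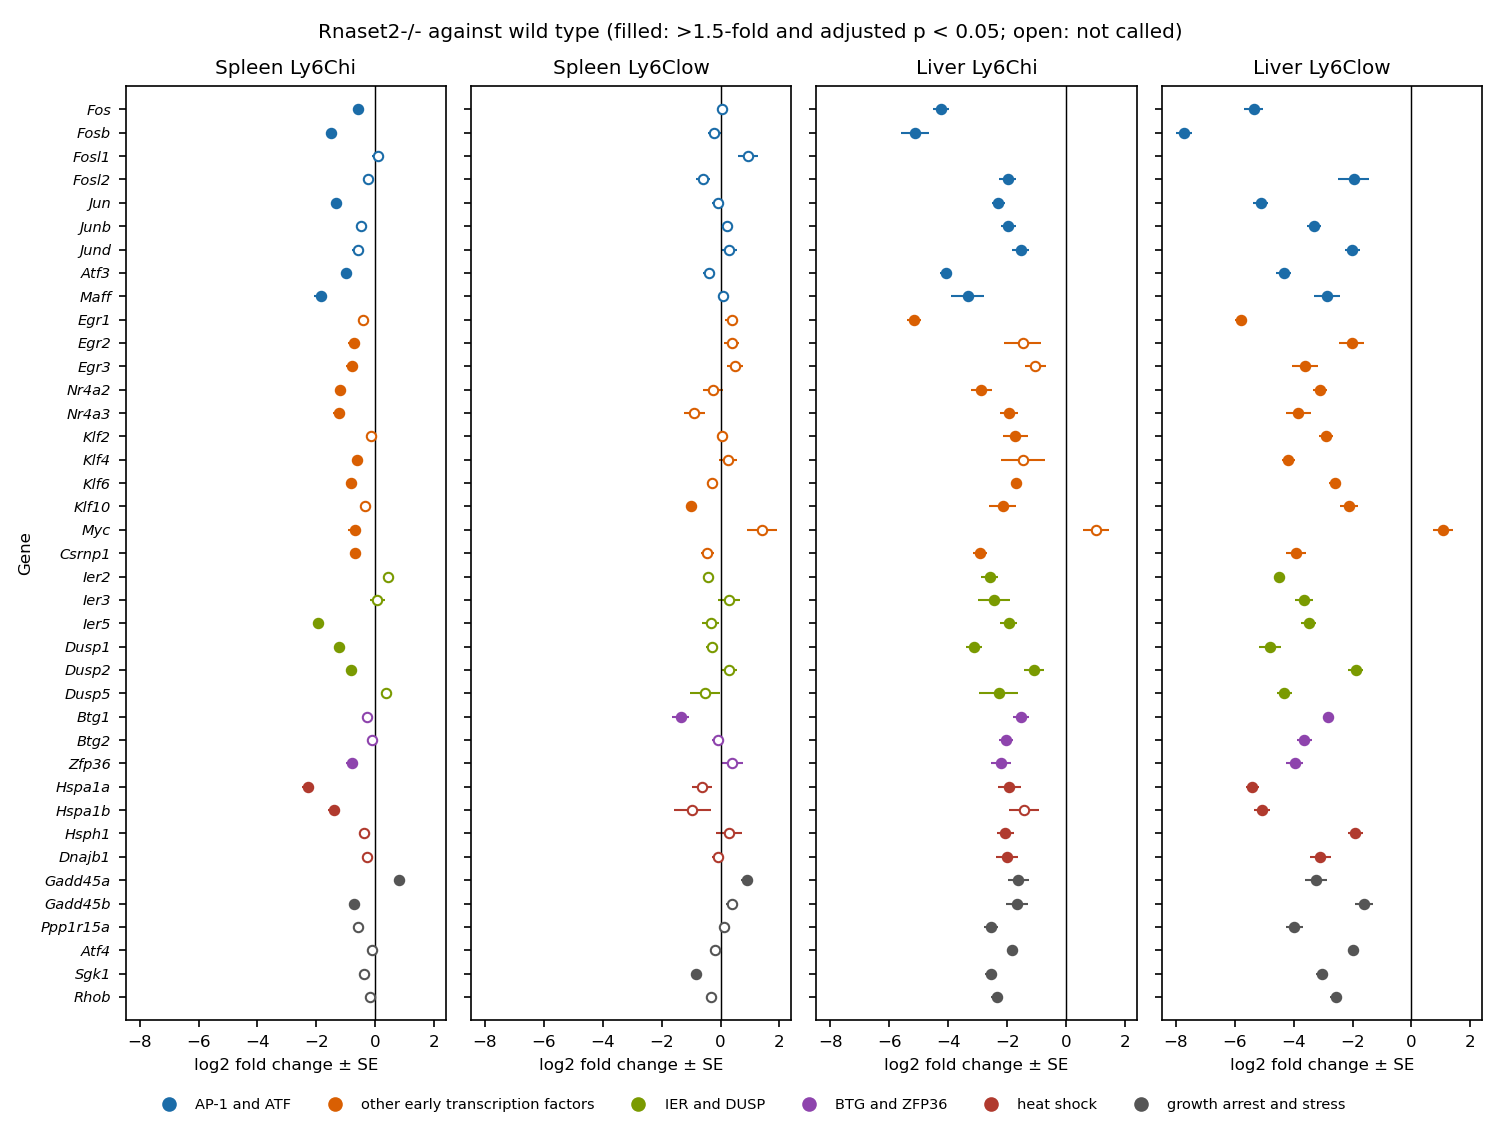
Log2 fold change of *Rnaset2*-/- against wild-type macrophages (horizontal axis) with its SE for each member tested (vertical axis, colored by class) in splenic Ly6Chi, splenic Ly6Clow, hepatic Ly6Chi and hepatic Ly6Clow macrophages, with filled points called at >1.5-fold and an adjusted p below 0.05. In the hepatic panels 33 and 37 members are called lower and lie left of 0, against 20 and 3 in the splenic panels.

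AP-1 genes were among those with the largest differences, and all 8 tested subunits and leucine-zipper factors were lower in *Rnaset2*-/- mice in both hepatic subsets. *Fos*, the inducible partner of Jun proteins, was at 7592, 5993 and 6954 RPM in the 3 wild-type Ly6Chi libraries and at 421, 337 and 635 RPM in the *Rnaset2*-/- ones, a 14.7-fold lower mean (log2 fold change, -4.24 ± 0.28 (SE), adjusted p = 0.00016). In Ly6Clow macrophages *Fos* was at 3073, 5137 and 5788 RPM in wild-type and 78.1, 140.3 and 129 RPM in *Rnaset2*-/- libraries (log2 fold change, -5.35 ± 0.32 (SE), adjusted p = 1.97e-05). No library of one genotype reached the range of the other. *Fosb*, a Fos paralog, was at 169, 275 and 241 RPM in wild-type and 5.07, 3.24 and 18.2 RPM in *Rnaset2*-/- Ly6Chi macrophages (log2 fold change, -5.12 ± 0.48 (SE), adjusted p = 0.000539). Its Ly6Clow levels were 235, 328 and 288 RPM in wild-type libraries and 0.847, 0.389 and 0 RPM in *Rnaset2*-/- libraries, where the 0 allows up to 0.230 RPM (log2 fold change, -7.71 ± 0.27 (SE), adjusted p = 2.13e-06). On the scale of log2(RPM + 1) this understates the difference, since the *Rnaset2*-/- values are below the pseudocount.

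*Jun* and *Junb*, which encode the Jun partners, followed the same order. *Jun* was at 1732, 2309 and 1716 RPM in wild-type and 359, 489.5 and 628 RPM in *Rnaset2*-/- Ly6Chi macrophages (log2 fold change, -2.30 ± 0.22 (SE), adjusted p = 0.000613), and at 2775, 2244 and 3303 RPM against 89.8, 57.3 and 99.7 RPM in Ly6Clow macrophages (log2 fold change, -5.12 ± 0.26 (SE), adjusted p = 1.26e-05). The wild-type *Jun* levels overlapped between the subsets, whereas the *Rnaset2*-/- levels were lower in Ly6Clow than in Ly6Chi macrophages (log2 fold change, -2.40). *Junb* was at 2952, 3516 and 2849.7 RPM in wild-type and 1137, 844 and 1021 RPM in *Rnaset2*-/- Ly6Chi libraries (log2 fold change, -1.96 ± 0.24 (SE), adjusted p = 0.0015). In Ly6Clow macrophages it was at 2102, 3639 and 3069 RPM against 282, 295 and 306 RPM (log2 fold change, -3.32 ± 0.24 (SE), adjusted p = 4.21e-05). The remaining AP-1 genes include *Maff*, a small MAF protein without an activation domain, at 129, 284 and 259.6 RPM in wild-type and 58.0, 13.2 and 20.2 RPM in *Rnaset2*-/- Ly6Chi macrophages (log2 fold change, -3.33 ± 0.56 (SE), adjusted p = 0.00469), and at 51.5, 161 and 148 RPM against 17.5, 11.0 and 14.8 RPM in Ly6Clow macrophages (-2.87). *Atf3*, a stress-induced member of the ATF family, fell in both subsets (log2 fold changes, -4.08 in Ly6Chi and -4.34 in Ly6Clow macrophages). *Jund* and *Fosl2*, whose products are less inducible, fell in Ly6Chi macrophages (-1.55 and -1.98) and in Ly6Clow macrophages (-2.003 and -1.96), and *Fosl2* lost its call in Ly6Clow macrophages without wild-type replicate 2 or replicate 3.

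**Figure D4:**
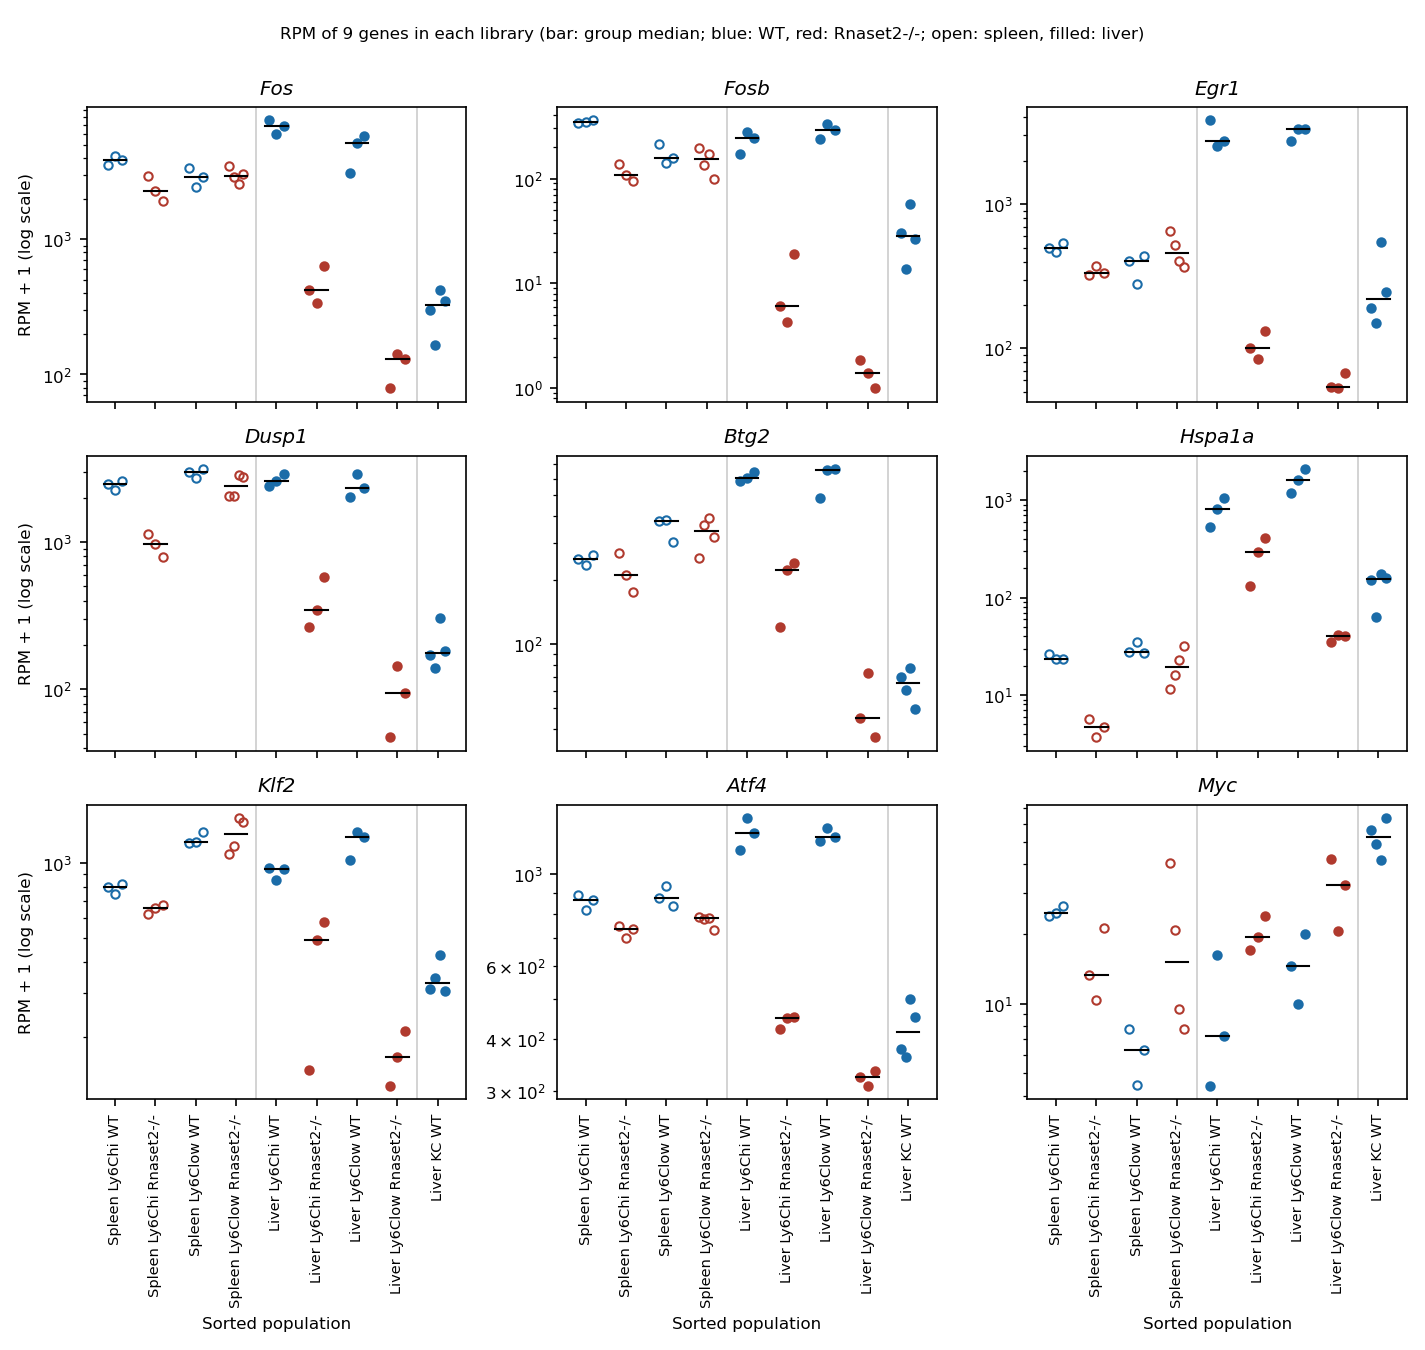
RPM + 1 (vertical log axis, whose range differs between panels) of 9 members in every library of the 9 groups, with each point a library, bars at group medians, wild-type in blue, *Rnaset2*-/- in red, spleen open and liver filled. For *Fos* the hepatic wild-type Ly6Chi libraries sit at 5993 to 7592 RPM and the hepatic *Rnaset2*-/- Ly6Chi ones at 337 to 635 RPM, and for *Myc* the order is the other way.

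Among the other transcription factors, 7 of 11 were lower in *Rnaset2*-/- Ly6Chi macrophages, and in Ly6Clow macrophages 10 were lower and *Myc* was higher. *Egr1*, a zinc-finger factor induced by growth signals and ERK, was at 3816, 2543 and 2758 RPM in wild-type and 99.0, 83.4 and 130.0 RPM in *Rnaset2*-/- Ly6Chi libraries (log2 fold change, -5.17 ± 0.24 (SE), adjusted p = 8.79e-05). In Ly6Clow macrophages it was at 2756, 3306 and 3341 RPM against 53.3, 51.8 and 66.5 RPM (log2 fold change, -5.79 ± 0.19 (SE), adjusted p = 2.08e-06). These were the largest fall of any member in Ly6Chi macrophages and the second largest in Ly6Clow macrophages. *Egr2* and *Egr3*, its paralogs, differed by -1.47 and -1.04 in Ly6Chi macrophages without being called (adjusted p = 0.115 and 0.0523, limma) and fell in Ly6Clow macrophages (-2.02 and -3.62). Both were called in Ly6Chi macrophages once *Rnaset2*-/- replicate 1 was left out. *Nr4a2* and *Nr4a3*, orphan nuclear receptors, fell in Ly6Chi (-2.88 and -1.93) and in Ly6Clow macrophages (-3.10 and -3.84).

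The Krüppel-like factors were less uniform. *Klf2*, a factor of quiescence, was at 955, 849 and 947 RPM in wild-type and 146, 491 and 576 RPM in *Rnaset2*-/- Ly6Chi macrophages (log2 fold change, -1.72 ± 0.42 (SE), adjusted p = 0.0193), a call lost with RPM as deposited and without wild-type replicate 1 or 3. In Ly6Clow macrophages *Klf2* was at 1027, 1330.1 and 1263 RPM against 126, 165 and 210.0 RPM (log2 fold change, -2.91 ± 0.24 (SE), adjusted p = 6.92e-05). *Klf4*, which takes part in monocyte differentiation, was at 252, 468 and 298 RPM in wild-type and 31.9, 264 and 371 RPM in *Rnaset2*-/- Ly6Chi libraries. Replicate 1 of *Rnaset2*-/- mice was far below the others, and the log2 fold change of -1.47, which was not called, became -0.44 without it. *Klf4* fell in Ly6Clow macrophages (-4.18). *Klf6* was at 756, 991 and 955 RPM in wild-type and 291, 376 and 369.8 RPM in *Rnaset2*-/- Ly6Chi libraries (log2 fold change, -1.70 ± 0.18 (SE), adjusted p = 0.000911), and at 807, 944 and 802 RPM against 172, 165 and 106 RPM in Ly6Clow libraries (log2 fold change, -2.59 ± 0.21 (SE), adjusted p = 6.74e-05). *Klf10*, induced by TGF-β, was at 549, 487 and 702 RPM against 64.1, 244 and 261 RPM in Ly6Chi (-2.15) and 432, 722 and 581 RPM against 89.1, 163 and 166 RPM in Ly6Clow macrophages (-2.11). For *Klf2* and *Klf10*, as for *Klf4*, the *Rnaset2*-/- Ly6Chi level was far lower in replicate 1, the library that stood apart, than in the others. *Csrnp1*, a nuclear protein induced by AXIN1, fell in both (-2.92 and -3.92).

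*Myc*, which drives growth and ribosome synthesis, went against the other members. It was at 3.40, 15.3 and 6.26 RPM in wild-type and 16.0, 18.4 and 22.9 RPM in *Rnaset2*-/- Ly6Chi macrophages (log2 fold change, 1.02 ± 0.43 (SE), adjusted p = 0.107), and at 13.5, 8.98 and 19.0 RPM against 41.3, 19.7 and 31.5 RPM in Ly6Clow macrophages (log2 fold change, 1.06 ± 0.34 (SE), adjusted p = 0.0348). Every *Rnaset2*-/- library lay above every wild-type library in both subsets, by a narrow margin. The call in Ly6Clow macrophages was lost without wild-type replicate 1, wild-type replicate 2, *Rnaset2*-/- replicate 1 or *Rnaset2*-/- replicate 3, and in Ly6Chi macrophages *Myc* was called only when wild-type replicate 2 was left out or only replicate 1 of the wild-type group was used.

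The genes that end or modulate the response fell as well, with 6 of 6 called lower in either hepatic subset. *Dusp1*, a phosphatase that inactivates p38 and JNK, was at 2395, 2598 and 2901 RPM in wild-type and 266, 342 and 579.9 RPM in *Rnaset2*-/- Ly6Chi macrophages (log2 fold change, -3.12 ± 0.27 (SE), adjusted p = 0.000368), and at 2001, 2882 and 2317 RPM against 46.5, 144 and 94.1 RPM in Ly6Clow macrophages (log2 fold change, -4.81 ± 0.37 (SE), adjusted p = 5.52e-05). Its promoter holds the cyclic AMP response element shown above. *Dusp2*, a nuclear MAP kinase phosphatase of leukocytes, was at 113, 206 and 99.7 RPM against 43.8, 93.5 and 113 RPM in Ly6Chi (log2 fold change, -1.08 ± 0.35 (SE), adjusted p = 0.0476) and 216, 132 and 284 RPM against 57.1, 59.1 and 48.8 RPM in Ly6Clow macrophages (log2 fold change, -1.89 ± 0.26 (SE), adjusted p = 0.000829). The Ly6Chi ranges of *Dusp2* overlapped. *Dusp5*, the nuclear ERK phosphatase whose promoter holds 2 CArG boxes, fell in Ly6Chi (-2.28) and in Ly6Clow macrophages (-4.31). Its *Rnaset2*-/- Ly6Chi levels were 6.68, 50.8 and 62.1 RPM, lowest in replicate 1, without which the log2 fold change was -1.37. The Ly6Chi calls of *Dusp2* and *Dusp5* were lost with RPM as deposited, with no filter on low genes, with edgeR and without wild-type replicate 1, 2 or 3.

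*Ier2*, a nuclear protein induced with *Fos*, was at 957, 677 and 663 RPM in wild-type and 92.1, 184 and 219.8 RPM in *Rnaset2*-/- Ly6Chi macrophages (log2 fold change, -2.59 ± 0.29 (SE), adjusted p = 0.00101). In Ly6Clow macrophages it was at 808, 772 and 857 RPM against 30.6, 39.1 and 38.4 RPM (log2 fold change, -4.50 ± 0.16 (SE), adjusted p = 2.3e-06). *Ier5* was at 24.3, 20.9 and 17.1 RPM against 5.83, 3.86 and 8.69 RPM in Ly6Chi (-1.94) and 27.8, 27.8 and 22.2 RPM against 1.16, 1.17 and 2.07 RPM in Ly6Clow macrophages (-3.49). Both genes separated the genotypes without overlap in either subset. *Ier3*, an NF-κB target tied to cell survival, fell in Ly6Chi (-2.45) and Ly6Clow macrophages (-3.65).

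All 3 regulators of mRNA decay were lower in both hepatic subsets. *Zfp36* encodes tristetraprolin, which binds AU-rich elements and shortens the life of cytokine mRNAs such as that of *Tnf*. It was at 2057, 5388 and 2417 RPM in wild-type and 718, 753 and 978 RPM in *Rnaset2*-/- Ly6Chi libraries (log2 fold change, -2.20 ± 0.35 (SE), adjusted p = 0.00386), and at 2788, 2586 and 5478 RPM against 209, 253 and 211 RPM in Ly6Clow libraries (log2 fold change, -3.96 ± 0.29 (SE), adjusted p = 4.4e-05). *Btg1* and *Btg2* encode antiproliferative proteins that bring the CCR4-NOT deadenylase to mRNAs. *Btg1* was at 681, 989.7 and 893 RPM against 462, 275 and 373 RPM in Ly6Chi (log2 fold change, -1.54 ± 0.27 (SE), adjusted p = 0.00577) and 653, 883 and 819 RPM against 123, 119 and 97.3 RPM in Ly6Clow macrophages (log2 fold change, -2.82 ± 0.19 (SE), adjusted p = 2.98e-05). *Btg2* was at 581, 601 and 645 RPM against 119, 223 and 238 RPM in Ly6Chi (log2 fold change, -2.03 ± 0.23 (SE), adjusted p = 0.00108) and 483, 657 and 662 RPM against 43.8, 72.4 and 35.5 RPM in Ly6Clow macrophages (log2 fold change, -3.63 ± 0.26 (SE), adjusted p = 4.05e-05). For all 3 genes the genotypes were separate in either subset, and the log2 fold change was further from 0 in Ly6Clow macrophages, a difference that was not tested.

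Heat shock genes fell in 3 of 4 cases in Ly6Chi and in 4 of 4 in Ly6Clow macrophages. *Hspa1a* and *Hspa1b* encode the inducible HSP70 chaperone and lie side by side on chromosome 17. Their annotated transcripts share 47.1% and 49.9% of all stretches of 100 bases, so reads may have been split between them. *Hspa1a* was at 529.5, 811 and 1047 RPM in wild-type and 131, 292 and 411 RPM in *Rnaset2*-/- Ly6Chi macrophages (log2 fold change, -1.93 ± 0.39 (SE), adjusted p = 0.00952), and at 1189, 1623 and 2082 RPM against 34.4, 40.2 and 39.0 RPM in Ly6Clow macrophages (log2 fold change, -5.40 ± 0.23 (SE), adjusted p = 5.49e-06). *Hspa1b* was at 596, 1192 and 1503 RPM against 207, 606 and 864 RPM in Ly6Chi macrophages, where the ranges overlapped and the difference was not called (log2 fold change, -1.42 ± 0.51 (SE), adjusted p = 0.0666). In Ly6Clow macrophages *Hspa1b* was at 1499.7, 2611 and 2629.6 RPM against 73.3, 74.4 and 51.1 RPM (log2 fold change, -5.08 ± 0.27 (SE), adjusted p = 1.41e-05). *Rnaset2*-/- replicate 3 held the highest Ly6Chi level of both genes in that genotype. *Hsph1*, the HSP110 co-chaperone that exchanges nucleotide on HSP70, was at 335, 695 and 596 RPM against 129, 138 and 207 RPM in Ly6Chi (-2.06) and 561, 951 and 789 RPM against 167, 223 and 230.5 RPM in Ly6Clow macrophages (-1.91). *Dnajb1*, the HSP40 partner of HSP70, fell in both subsets (-1.99 and -3.10).

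The stress and growth-arrest genes fell in 6 of 6 cases in both hepatic subsets. *Atf4*, the effector of the integrated stress response, was at 1141, 1358 and 1253 RPM in wild-type and 422, 449 and 450.5 RPM in *Rnaset2*-/- Ly6Chi macrophages (log2 fold change, -1.82 ± 0.18 (SE), adjusted p = 0.000621), and at 1196, 1284 and 1224 RPM against 324, 308 and 335 RPM in Ly6Clow macrophages (log2 fold change, -1.98 ± 0.16 (SE), adjusted p = 7.07e-05). *Rhob*, an immediate early small GTPase of endosomes, was at 989, 1083 and 1203 RPM against 211, 294 and 305 RPM in Ly6Chi (log2 fold change, -2.34 ± 0.19 (SE), adjusted p = 0.000275) and 807, 982 and 1033 RPM against 155, 155 and 173 RPM in Ly6Clow macrophages (log2 fold change, -2.57 ± 0.18 (SE), adjusted p = 3.6e-05). *Sgk1*, a kinase induced by serum and glucocorticoid, was at 430.4, 392 and 513 RPM against 89.3, 80.6 and 114 RPM in Ly6Chi (log2 fold change, -2.54 ± 0.20 (SE), adjusted p = 0.000263) and 395, 530.1 and 613 RPM against 67.4, 61.6 and 57.3 RPM in Ly6Clow macrophages (log2 fold change, -3.05 ± 0.21 (SE), adjusted p = 3.09e-05). These 3 genes had no overlap between genotypes. *Gadd45a*, a p53 target of growth arrest and DNA repair, was at 131, 162 and 248 RPM against 103, 51.0 and 65.5 RPM in Ly6Chi (-1.61) and 113, 198 and 189.7 RPM against 24.5, 9.49 and 20.1 RPM in Ly6Clow macrophages (-3.23). *Gadd45b*, its NF-κB-induced paralog, fell in both subsets (-1.67 and -1.62), and *Ppp1r15a*, the phosphatase subunit GADD34 that restores translation after stress, fell likewise (-2.55 and -3.97). The Ly6Chi calls of *Gadd45a*, *Gadd45b*, *Ier3* and *Klf10* were lost without wild-type replicate 3.

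RNA of other cell types and of KC markers moved with genotype in the same hepatic libraries. The 10 endothelial markers summed to 130 to 179 RPM in wild-type and 660 to 3759 RPM in *Rnaset2*-/- Ly6Chi libraries, and 10 of 10 were called higher. In Ly6Clow libraries the sums were 315 to 607 RPM against 1227 to 4797 RPM, but only 2 of 10, *Pecam1* (3.497) and *Kdr* (1.96), were called higher, where 20.2% of all genes were. The 9 measured T and NK cell markers summed to 15.0 to 21.4 RPM against 420 to 596 RPM in Ly6Chi and 5.79 to 6.71 RPM against 44.8 to 125 RPM in Ly6Clow libraries. The 7 measured B cell markers summed to 19.2 to 22.0 RPM against 126 to 353 RPM in Ly6Chi and 26.0 to 30.2 RPM against 116 to 391 RPM in Ly6Clow libraries, and 7 of 7 and 5 of 5 tested were higher. The 7 measured erythroid markers summed to 2.86 to 6.62 RPM over both wild-type subsets and 65.1 to 313 RPM over both *Rnaset2*-/- subsets. The 10 KC markers summed to 517 to 857 RPM in wild-type and 7855 to 12203 RPM in *Rnaset2*-/- Ly6Clow libraries, with 7 of 10 called higher. In Ly6Chi libraries these sums overlapped, at 595 to 844 RPM and 687 to 782 RPM, while 5 of 9 KC markers tested were called higher and 1 lower (median log2 fold change, 2.01). No endothelial, KC or T and NK cell marker measured was at 0 in all libraries of a hepatic group. The study proposes that the hepatic *Rnaset2*-/- Ly6Clow macrophages are themselves monocyte-derived KCs. Whether the KC marker RNA came from the sorted cells or from other cells was not tested. The part of other cells, of the change in KC markers and of sex in the lower levels of the immediate early genes was not tested.

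Splenic macrophages of the 2 genotypes were compared in the same way. In splenic Ly6Chi macrophages 20 of 39 members were lower in *Rnaset2*-/- mice and 1, *Gadd45a*, was higher (median log2 fold change of the members, -0.60), where 12.5% of all genes tested were called lower and 9.77% higher. Every *Rnaset2*-/- library lay below every wild-type one for 32 of the 39 genes (32.4% of all genes tested) and above for 3 (18.7%). *Hspa1a* had the largest fall, from 25.6, 22.2 and 22.5 RPM in wild-type to 4.68, 2.70 and 3.70 RPM in *Rnaset2*-/- libraries (log2 fold change, -2.30 ± 0.18 (SE), adjusted p = 1.06e-05). *Ier5* was at 21.6, 23.3 and 21.2 RPM against 4.16, 4.56 and 4.84 RPM (log2 fold change, -1.96 ± 0.14 (SE), adjusted p = 7.34e-06) and *Maff* at 41.6, 46.7 and 50.3 RPM against 16.3, 11.1 and 7.41 RPM (log2 fold change, -1.85 ± 0.23 (SE), adjusted p = 0.000178). These 3 genes had no overlap between the genotypes. *Gadd45a* was at 100.3, 101 and 96.6 RPM in wild-type and 137, 193 and 159 RPM in *Rnaset2*-/- libraries (log2 fold change, 0.81 ± 0.13 (SE), adjusted p = 0.000914).

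Other named members were called lower in splenic Ly6Chi macrophages as well. *Fos* was at 3572, 4128 and 3879 RPM in wild-type and 2919.9, 2289 and 1926 RPM in *Rnaset2*-/- libraries (log2 fold change, -0.60 ± 0.16 (SE), adjusted p = 0.0125), *Fosb* at 337, 342 and 357 RPM against 138, 106 and 93.8 RPM (-1.51) and *Jun* at 1736, 1763 and 1684 RPM against 734, 537 and 648 RPM (-1.33). *Dusp1* was at 2479, 2248 and 2586 RPM against 1125, 959.7 and 787 RPM (-1.24), *Dusp2* at 183, 177 and 159 RPM against 97.8, 77.0 and 94.8 RPM (-0.82) and *Zfp36* at 2929, 2625 and 2583 RPM against 2119, 1127 and 1245 RPM (-0.80). *Klf6* was at 1146, 1189.7 and 1219.9 RPM against 646, 638 and 563 RPM (-0.83) and *Hspa1b*, read with the caution given above, at 8.95, 11.8 and 9.38 RPM against 4.16, 2.35 and 2.47 RPM (-1.39). In all 8 of these genes the *Rnaset2*-/- libraries lay below the wild-type ones. *Myc* fell here too, from 22.9, 23.6 and 25.5 RPM to 12.3, 9.36 and 20.2 RPM (-0.69), the opposite direction to its call in hepatic Ly6Clow macrophages.

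Other named members were not called in splenic Ly6Chi macrophages. *Egr1* was at 497, 464 and 536 RPM in wild-type and 322, 374 and 330.4 RPM in *Rnaset2*-/- libraries, *Junb* at 1624, 1549 and 1622 RPM against 1306, 938 and 988 RPM and *Ier2* at 221, 228 and 223 RPM against 271, 244 and 321 RPM. *Klf2* was at 797, 748 and 819 RPM against 622, 658 and 673 RPM, *Klf10* at 300.4, 295 and 355 RPM against 249, 227 and 210.4 RPM and *Hsph1* at 118, 117 and 122 RPM against 92.5, 84.3 and 76.5 RPM. The differences were within 1.5-fold or above the adjusted p of 0.05. *Btg1* was at 459, 514 and 509 RPM against 389, 408 and 342 RPM, *Btg2* at 250.1, 234 and 261 RPM against 266, 211 and 175 RPM and *Atf4* at 889, 818 and 862 RPM against 747, 701 and 734 RPM. *Rhob* was at 464, 433 and 456 RPM against 332, 342 and 449 RPM and *Sgk1* at 216, 219 and 218 RPM against 164, 171 and 131 RPM. The *Rnaset2*-/- libraries were above the wild-type ones for *Ier2*, overlapped them for *Btg2* and *Rhob*, and were below them for the other 8. In 1 fit of all 29 libraries, 10 members were called lower and none higher in this comparison. With RPM as deposited the median over all genes moved by -0.11, and 22 members were lower. The 12 neutrophil markers summed to 30729 to 32971 RPM in the wild-type and 33586 to 58218 RPM in the *Rnaset2*-/- libraries, with 7 of 12 called higher. The T and NK cell markers went the other way, at 671 to 709 RPM against 111 to 218 RPM, with 8 of 9 called lower. Dendritic cell markers summed to 357 to 364 RPM against 150.4 to 210.3 RPM (7 of 8 lower) and erythroid markers to 141 to 146 RPM against 6.47 to 16.6 RPM (3 of 3 tested lower). The part of such cells was not tested.

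In splenic Ly6Clow macrophages few members differed by genotype. *Gadd45a* was higher in *Rnaset2*-/- mice, *Btg1*, *Klf10* and *Sgk1* were lower, and the other 35 of 39 members were not called (median log2 fold change of the members, -0.10), where 4.05% of all genes tested were called higher and 4.30% lower. The *Rnaset2*-/- libraries all lay below the wild-type ones for 7 of the 39 genes (16.3% of all genes tested) and above for 2 (14.3%). The first share was near that of all genes and the second was below it. *Gadd45a* was at 58.6, 69.5 and 66.5 RPM in wild-type and 189, 115, 97.3 and 97.4 RPM in *Rnaset2*-/- libraries (log2 fold change, 0.89 ± 0.21 (SE), adjusted p = 0.0338). *Btg1* was at 837, 985 and 834 RPM against 223, 281, 497 and 445 RPM (log2 fold change, -1.35 ± 0.29 (SE), adjusted p = 0.0277), *Klf10* at 496, 403 and 439.7 RPM against 225, 233, 208 and 207 RPM (log2 fold change, -1.02 ± 0.11 (SE), adjusted p = 0.00168) and *Sgk1* at 576, 529 and 514 RPM against 235, 291, 336 and 346 RPM (log2 fold change, -0.84 ± 0.17 (SE), adjusted p = 0.0233). The genotypes did not overlap for these 4 genes. The comparison rested on single libraries, since leaving out wild-type replicate 1, wild-type replicate 2, wild-type replicate 3 or *Rnaset2*-/- replicate 2, the library with Y-linked RNA, left 1 member called lower and none higher. Without *Rnaset2*-/- replicate 1, which stood apart, 1 member was higher and 3 lower, and the log2 fold change of *Gadd45a* was 0.70. DESeq2 called 3 members higher and 3 lower. The 12 neutrophil markers ran from 1084 to 2470 RPM in wild-type and from 3460 to 40758 RPM in *Rnaset2*-/- libraries, with 2 of 12, *Retnlg* (2.82) and *Ltf* (2.97), called higher. The 10 endothelial markers summed to 281 to 337 RPM and 1475 to 2214 RPM, with 1 of 5 tested, *Pecam1* (2.66), called higher. T and NK cell markers ran from 86.5 to 141 RPM in wild-type and from 18.9 to 70.8 RPM in *Rnaset2*-/- libraries (5 of 8 tested lower), and erythroid markers from 53.7 to 128 RPM and from 86.3 to 1283 RPM (3 of 5 tested higher). The part of these cells was not tested.

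The genes with the largest hepatic differences were not called by genotype in splenic Ly6Clow macrophages. *Fos* was at 3399, 2446 and 2870.2 RPM in wild-type and 3482, 2908, 2584 and 3024 RPM in *Rnaset2*-/- libraries, *Fosb* at 215, 139 and 156 RPM and 194, 133, 169 and 97.1 RPM, and *Egr1* at 403, 279 and 433 RPM and 649, 516, 399 and 366 RPM. *Jun* was at 1818, 1028 and 1579 RPM and 1232, 1369.8, 1293 and 1476 RPM, *Junb* at 1031, 874 and 1008 RPM and 1125, 1166, 1221 and 1003 RPM, and *Maff* at 18.2, 15.3 and 16.4 RPM and 20.2, 14.2, 16.5 and 19.9 RPM. The genotypes overlapped in all 6 of these genes. *Dusp1* was at 2964, 2729 and 3104 RPM and 2046, 2052, 2845 and 2748 RPM, *Dusp2* at 259.6, 153 and 246 RPM and 196, 225, 342 and 306 RPM, and *Ier5* at 17.5, 29.4 and 19.9 RPM and 10.5, 17.0, 18.5 and 24.3 RPM. *Ier2* was at 249, 233 and 203 RPM and 137, 192, 190.3 and 164 RPM, *Zfp36* at 4022, 1256 and 2835 RPM and 2783, 3551, 3594 and 2833 RPM, and *Btg2* at 379, 381 and 301 RPM and 252, 362, 392 and 319 RPM. Of these, only *Ier2* separated the genotypes, with the *Rnaset2*-/- libraries lower.

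Heat shock genes overlapped between genotypes in this splenic subset, and *Hspa1a* and *Hspa1b* were low beside their hepatic wild-type levels. *Hspa1a* was at 27.0, 34.0 and 26.0 RPM in wild-type and 10.5, 14.9, 22.1 and 30.6 RPM in *Rnaset2*-/- libraries, *Hspa1b* at 39.3, 38.9 and 32.0 RPM and 3.84, 37.0, 25.5 and 26.6 RPM, and *Hsph1* at 215, 233 and 258 RPM and 119.9, 609, 283 and 311 RPM. *Klf2* was at 1202, 1210.0 and 1334 RPM and 1085, 1164, 1509 and 1455 RPM, *Klf6* at 1098, 1067 and 1049 RPM and 724, 817, 999 and 962 RPM, *Atf4* at 873, 931 and 835 RPM and 785, 777, 783 and 733 RPM, and *Rhob* at 350.3, 546 and 434 RPM and 322, 331, 378 and 369 RPM. *Klf6* and *Atf4* were lower in each *Rnaset2*-/- library than in each wild-type one without being called. *Myc* spread widely among the *Rnaset2*-/- libraries, at 39.4, 19.8, 8.44 and 6.76 RPM, beside 6.78, 3.43 and 5.27 RPM in wild-type libraries (log2 fold change, 1.40 ± 0.51 (SE), adjusted p = 0.109), with a log2 fold change of 0.97 without replicate 1, and was called higher by DESeq2, in 1 fit of all 29 libraries and with replicate numbers as a block.

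Whether the difference by genotype itself differed between the organs was tested as an interaction, which is the hepatic log2 fold change minus the splenic one. In Ly6Chi macrophages the interaction was called for 28 of 39 members in the lower direction, and for *Myc* in the higher one, where 16.0% of all genes tested were called lower and 17.6% higher. In Ly6Clow macrophages it was called lower for 37 of 39 members and higher for none, where the shares of all genes were 14.7% and 12.1%. No member was higher there at an unadjusted p below 0.05 in limma, or called higher by DESeq2 or edgeR. *Egr1* had the largest value in Ly6Chi macrophages (interaction, -4.71 ± 0.26 (SE), adjusted p = 1.56e-07), followed by *Fos* (-3.61 ± 0.32) and *Fosb* (-3.59 ± 0.56). *Fosb* had the largest in Ly6Clow macrophages (interaction, -7.51 ± 0.37 (SE), adjusted p = 1.14e-07), followed by *Egr1* (-6.16 ± 0.30) and *Fos* (-5.41 ± 0.37). *Myc* gave 1.75 ± 0.53 (SE), adjusted p = 0.024 in Ly6Chi macrophages, a call lost without splenic wild-type replicate 3, splenic *Rnaset2*-/- replicate 1 or replicate 2, or hepatic wild-type replicate 3. *Fosl2* and *Myc* were the 2 members not called in Ly6Clow macrophages. Taking RPM as deposited moved the median of all genes in the Ly6Chi interaction by 0.36 and left 22 members called lower. With only replicate 1 of the hepatic wild-type groups, 17 members were called lower in Ly6Chi and 31 in Ly6Clow macrophages, and the calls of *Egr1*, *Fos* and *Fosb* remained. Without the hepatic *Rnaset2*-/- Ly6Chi library that stood apart 31 were lower in Ly6Chi, and in Ly6Clow macrophages 36 were lower without the splenic *Rnaset2*-/- replicate 2, which held Y-linked RNA, and 37 without splenic or without hepatic *Rnaset2*-/- replicate 1. In Ly6Chi macrophages the interaction was also called higher for 9 of 9 T and NK cell, 7 of 7 B cell, 9 of 10 endothelial and 5 of 5 erythroid markers. Of the 10 KC markers 7 were called higher there and 1 lower. In Ly6Clow macrophages it was called higher for 8 of 8 T and NK cell, 4 of 7 B cell and 6 of 10 KC markers, and for no endothelial or erythroid marker. The part of other cells and of the change in KC markers was not tested. Sex differed between hepatic genotypes and, apart from 1 library, not between splenic ones, so the interaction of organ with genotype and that with sex cannot be told apart.

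**Figure D5:**
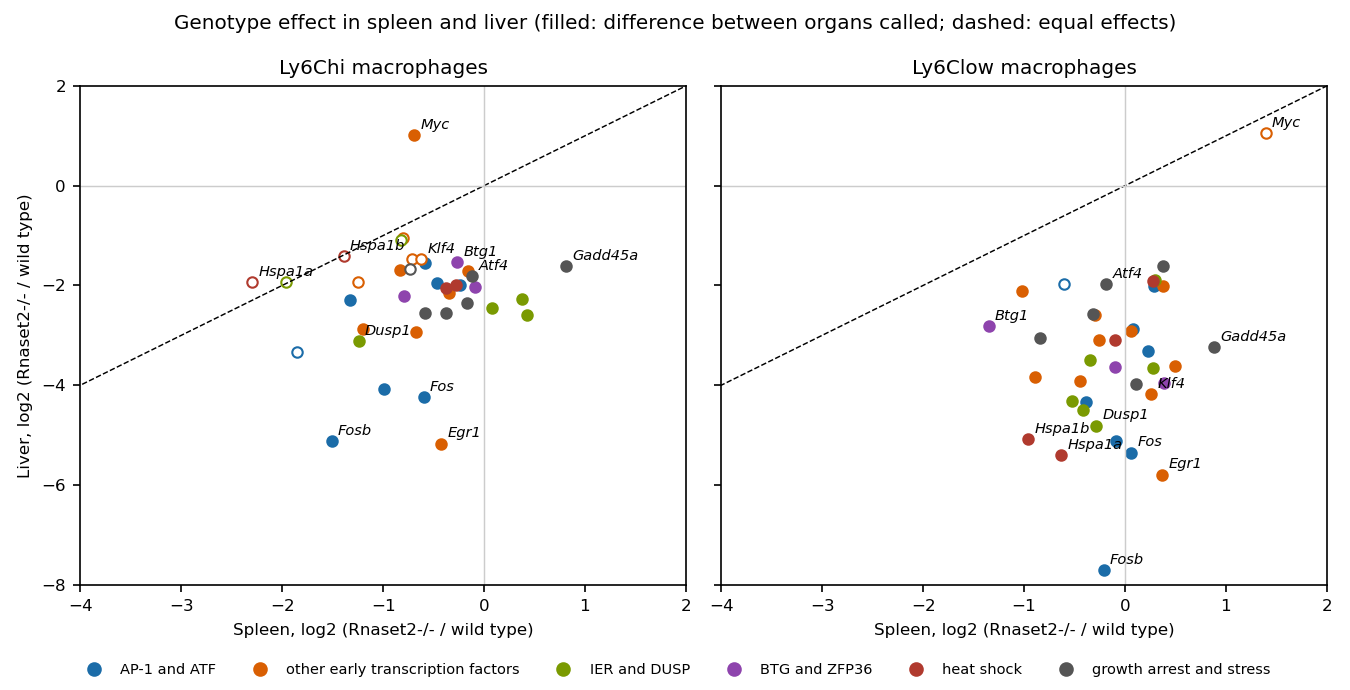
Log2 fold change of *Rnaset2*-/- against wild-type macrophages in liver (vertical axis) against that in spleen (horizontal axis, on a different scale) for the members in Ly6Chi (left) and Ly6Clow (right) macrophages, with a dashed line of equal change and filled points where the interaction was called. Most points lie below the line, the lowest being *Egr1* in Ly6Chi (-5.17 in liver) and *Fosb* in Ly6Clow macrophages (-7.71 in liver).

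Liver and spleen were then compared within a genotype, which sets the organs and their dissociation against each other. In wild-type Ly6Chi macrophages 27 of 39 members were higher in liver and 1, *Myc*, was lower (median log2 fold change, 1.30), where 17.1% of all genes tested were called higher and 20.7% lower. In wild-type Ly6Clow macrophages 24 of 38 were higher in liver and 1, *Klf4*, was lower (median, 1.06), where 18.8% were called higher and 15.3% lower. *Hspa1a* and *Hspa1b* differed most. *Hspa1b* was higher in Ly6Chi (log2 fold change, 6.81 ± 0.29 (SE), adjusted p = 5.27e-07) and in Ly6Clow macrophages (log2 fold change, 5.90 ± 0.22 (SE), adjusted p = 3.43e-07), and *Hspa1a* likewise (5.25 ± 0.22 and 5.78 ± 0.21). *Ier3* rose by 3.90 and 2.79, *Gadd45b* by 3.35 and 2.46, *Egr1* by 2.86 and 3.13, and *Maff* by 2.45 and 2.66. *Fos*, which was already abundant in spleen, rose by 1.10 and 0.69. *Myc* was lower in liver in Ly6Chi (-1.38) but higher (1.28) in Ly6Clow macrophages. *Klf4* fell by 0.73, a call lost without splenic wild-type replicate 1 or 3 or hepatic wild-type replicate 1 or 2. With only replicate 1 of the hepatic wild-type groups, 18 members were higher and 1 lower in Ly6Chi, and 13 higher and none lower in Ly6Clow macrophages. *Fos*, *Maff* and *Myc* then lost their Ly6Clow calls, with log2 fold changes of 0.09, 1.58 and 1.28. Taking RPM as deposited moved the median of all genes in the Ly6Chi comparison by -0.26, with 25 members then called higher and 3 lower, and without hepatic wild-type replicate 2 there were 2 called lower. The 12 neutrophil markers summed to 30729 to 32971 RPM in splenic and 346 to 2467 RPM in hepatic wild-type Ly6Chi libraries (10 of 12 lower), and to 1084 to 2470 RPM against 8.36 to 14.9 RPM in Ly6Clow libraries (11 of 11 tested lower). T and NK cell markers were lower in liver in 9 of 9 and 6 of 6 tested, while endothelial markers were higher in 8 and 9 of 10. The part of these cells was not tested.

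In *Rnaset2*-/- mice more members were lower in liver than were higher. In Ly6Chi macrophages 6 of 39 members were higher in liver and 14 were lower (median, -0.48), where 15.2% of all genes tested were called higher and 12.9% lower. In Ly6Clow macrophages 1 of 38 was higher and 27 were lower (median, -2.02), where 18.5% were called higher and 17.6% lower. The 6 higher members in Ly6Chi macrophages were *Hspa1b* (6.87), *Hspa1a* (5.70), *Gadd45b* (2.49), *Nr4a3* (1.80), *Egr3* (1.44) and *Hsph1* (0.79). *Hspa1a* was the 1 higher member in Ly6Clow macrophages (1.05 ± 0.35 (SE), adjusted p = 0.0439), a call lost without splenic *Rnaset2*-/- replicate 3 or any 1 of the hepatic *Rnaset2*-/- replicates 1, 2 and 3, while leaving out splenic replicate 1, which stood apart, gave 3 higher and 26 lower members. Among those lower in liver were *Fosb* at -3.90 and *Fos* at -2.46 in Ly6Chi, and *Fosb* at -6.71, *Klf4* at -5.14, *Dusp1* at -4.76 and *Fos* at -4.69 in Ly6Clow macrophages. The count of 14 in Ly6Chi macrophages became 9, 8 and 9 without splenic *Rnaset2*-/- replicate 1, 2 and 3, and 9 without hepatic replicate 2. Without the hepatic Ly6Chi library that stood apart 5 members were higher and 14 lower, and without the splenic Ly6Clow library with Y-linked RNA 1 was higher and 24 lower, and without hepatic Ly6Clow replicate 1 none was higher and 26 were lower. Neutrophil markers were lower in liver in 12 of 12 (Ly6Chi) and 11 of 12 (Ly6Clow) cases, endothelial markers were higher in 9 of 10 in either subset, and their part was not tested. The comparisons within a genotype share libraries with the interaction above and are not separate evidence of it.

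KCs, sorted from dissociated wild-type livers, show the levels of these genes in another hepatic macrophage. *Fos* was at 298, 164, 419 and 350.3 RPM in the 4 KC libraries, *Fosb* at 29.3, 12.6, 56.1 and 25.6 RPM and *Egr1* at 191, 148, 544 and 247 RPM. *Jun* was at 304, 159, 319.9 and 264 RPM, *Junb* at 679, 508, 584 and 647 RPM and *Maff* at 21.7, 13.9, 15.3 and 21.9 RPM. All 6 were below each wild-type hepatic Ly6Chi and Ly6Clow library. *Dusp1* was at 169, 139, 304 and 180.5 RPM, *Dusp2* at 30.1, 20.3, 18.5 and 20.9 RPM, *Ier2* at 105, 78.4, 78.8 and 69.0 RPM and *Ier5* at 5.73, 3.74, 5.94 and 4.61 RPM. *Zfp36* was at 381, 248, 288 and 466 RPM, *Btg1* at 254, 246, 189.9 and 112 RPM and *Btg2* at 68.7, 60.0, 76.4 and 48.6 RPM. These feedback and mRNA-decay genes were likewise below the wild-type hepatic Ly6C libraries. *Hspa1a* was at 149, 62.7, 174 and 158 RPM, *Hspa1b* at 246, 157, 225 and 103 RPM and *Hsph1* at 107, 137, 150.4 and 98.2 RPM. *Klf2* was at 311, 345, 424 and 304 RPM, *Klf6* at 247, 231, 222 and 208 RPM and *Klf10* at 119, 147, 164 and 129.9 RPM. *Atf4* was at 377, 362, 499 and 452 RPM, *Rhob* at 379, 398, 249 and 215 RPM, *Sgk1* at 336, 371, 399.7 and 348 RPM and *Gadd45a* at 19.1, 27.5, 52.0 and 32.0 RPM. *Sgk1* was the exception among them, with KC levels that overlapped those of the wild-type Ly6C libraries. *Myc*, at 55.5, 47.8, 40.7 and 62.3 RPM, was higher in KCs. Every wild-type hepatic Ly6Chi library lay above every KC library for 35 members (11.7% of all genes tested) and below for 1 (51.3%). For wild-type hepatic Ly6Clow libraries the counts were 34 above (12.2%) and 1 below (47.1%).

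Against KCs, 36 of 38 members were higher and *Myc* was lower in wild-type Ly6Chi macrophages (median log2 fold change, 3.22), where 25.3% of all genes tested were called higher and 29.3% lower. In wild-type Ly6Clow macrophages the counts were the same (median, 3.03), where the shares of all genes were 24.0% and 26.0%. *Egr3* was the member not called in either. The largest differences in Ly6Chi macrophages were in *Atf3* (5.97 ± 0.17 (SE), adjusted p = 1.13e-09) and *Fos* (5.23 ± 0.29), and in Ly6Clow macrophages in *Atf3* (5.46 ± 0.20 (SE), adjusted p = 5.01e-08) and *Fos* (4.54 ± 0.33). *Rnaset2*-/- Ly6Chi macrophages were still above the wild-type KCs in 20 of 38 members and below them in 2, *Myc* (-1.003) and *Sgk1* (-1.55) (median, 1.01), where 14.9% of all genes were called higher and 17.2% lower. *Rnaset2*-/- Ly6Clow macrophages were above KCs in only 4 members, *Dusp2* (1.79), *Gadd45b* (1.32), *Hsph1* (1.28) and *Atf3* (1.10), and below them in 13 (median, -0.36), where 19.4% of all genes were called higher and 26.3% lower. *Fosb* (-4.07), *Egr3* (-2.95), *Sgk1* (-2.01) and *Ppp1r15a* (-1.81) led these 13, which became 6 without *Rnaset2*-/- replicate 2 and 24 with RPM as deposited. The 4 comparisons share the KC libraries, and those with *Rnaset2*-/- macrophages differ in genotype, cell type and sex at once. Using only replicate 1 of the hepatic wild-type groups, 35 members were higher in Ly6Chi and 34 in Ly6Clow macrophages than in KCs and 1 was lower in either, and without the *Rnaset2*-/- Ly6Chi library that stood apart 22 were higher and 2 lower. Without KC replicate 3 the 4 comparisons gave 37, 37, 19 and 4 higher and 1, 1, 2 and 12 lower members (wild-type Ly6Chi and Ly6Clow, then *Rnaset2*-/- Ly6Chi and Ly6Clow macrophages), and without *Rnaset2*-/- Ly6Clow replicate 1 the last gave 6 higher and 11 lower. The 10 endothelial markers summed to 3947 to 9994 RPM in KCs, above the hepatic wild-type Ly6C libraries. Hepatocyte markers summed to 2715 to 6370 RPM in KCs against 115 to 349 RPM in the wild-type Ly6C libraries, B cell markers to 587 to 1045 RPM against 19.2 to 30.2 RPM, and T and NK cell markers to 255 to 562 RPM against 5.79 to 21.4 RPM. The part of these cells was not tested. The median of all genes moved by -0.62 and -0.53 for the wild-type and by -0.36 and -0.48 for the *Rnaset2*-/- Ly6Chi and Ly6Clow comparisons when RPM were taken as deposited.

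Ly6Clow and Ly6Chi macrophages were compared within organ and genotype. In wild-type liver they differed little, with 1 member of 39 higher (*Dusp5*, 0.67) and 2 lower in Ly6Clow macrophages (*Ier3*, -1.52, and *Gadd45b*, -1.05), where 5.24% of all genes tested were called higher and 4.84% lower. Leaving out Ly6Chi replicate 1, 2 or 3 or Ly6Clow replicate 1 or 3 left 1 member called lower, and the count called higher became 2 without Ly6Chi replicate 3 or Ly6Clow replicate 1 and 0 without any of the others. Neutrophil markers were lower in Ly6Clow macrophages in 9 of 10 tested. In *Rnaset2*-/- liver 19 of 38 members were lower in Ly6Clow macrophages and none was higher, where 8.26% of all genes were called lower and 8.75% higher. At an unadjusted p below 0.05, limma gave 2 members higher, and DESeq2 and edgeR called none. *Ier3* (-2.78 ± 0.57 (SE), adjusted p = 0.0203), *Hspa1b* (-2.69 ± 0.44), *Egr3* (-2.54 ± 0.57), *Hspa1a* (-2.53 ± 0.34), *Fosb* (-2.44 ± 0.55) and *Jun* (-2.40 ± 0.28) had the largest falls. The count was 9 without Ly6Chi replicate 2, 7 without Ly6Chi replicate 3, 11 without Ly6Clow replicate 2, 21 without Ly6Chi replicate 1 and 17 without Ly6Clow replicate 1. With RPM as deposited the median over all genes moved by -0.15, and 22 members were lower. Same-numbered libraries deviated together (r across genes of 0.53, 0.23 and 0.46), which was taken as pairing, although the labels do not state it. The 19 calls came from a fit without the pairing. With the replicate number as a block more members were called lower, as counted under the processing below. Of the 10 KC markers, 6 were called higher in the *Rnaset2*-/- Ly6Clow than Ly6Chi libraries, neutrophil markers were lower in 8 of 8 tested and T and NK cell markers in 5 of 9, and their part was not tested.

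In spleen members were called in both directions, and the lower calls were no more frequent than among all genes. Wild-type Ly6Clow macrophages had 9 members higher and 7 lower than Ly6Chi macrophages, where 13.8% of all genes tested were called higher and 19.8% lower. *Dusp5* (2.74 ± 0.10 (SE), adjusted p = 2.91e-08), *Hspa1b* (1.91 ± 0.14) and *Sgk1* (1.45 ± 0.07) were the members that rose most, and *Myc* (-1.92 ± 0.20), *Nr4a2* (-1.59 ± 0.18) and *Maff* (-1.28 ± 0.12) those that fell most. In *Rnaset2*-/- spleen 15 members were higher in Ly6Clow macrophages and 2, *Fosl2* (-0.74) and *Ier2* (-0.69), were lower, where 13.0% of all genes were called higher and 15.1% lower. *Hspa1b* (2.30 ± 0.65), *Hspa1a* (2.06 ± 0.36), *Dusp5* (1.81 ± 0.52), *Hsph1* (1.75 ± 0.46) and *Ier5* (1.71 ± 0.28) rose most. The 2 lower calls were reduced to 1 or none when any *Rnaset2*-/- library but Ly6Clow replicate 3 was left out, 13 members were higher without the library with Y-linked RNA and 17 without Ly6Clow replicate 1, and in 1 fit of all 29 libraries 4 members were called lower in wild-type spleen. With the replicate number as a block, 6 members were higher and 0 lower in *Rnaset2*-/- spleen. With RPM as deposited the median over all genes moved by -0.14 in wild-type spleen, with 6 members higher and 9 lower. The 12 neutrophil markers, at 30729 to 32971 RPM in wild-type Ly6Chi and 1084 to 2470 RPM in Ly6Clow libraries, were lower in 12 of 12 cases, and T and NK cell markers in 9 of 9. In *Rnaset2*-/- spleen 5 of 12 neutrophil markers were lower and 5 of 5 erythroid markers tested were higher. The part of these cells was not tested.

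Genes of connected pathways, listed apart from the members, were counted in the same hepatic comparisons and are read against the shares of all genes given above. Of 40 other early response genes 35 were tested in Ly6Chi macrophages, and 22 were lower and none higher in *Rnaset2*-/- mice, led by *Trib1* (-3.92) and *Rgs1* (-3.72), with a median of -1.65 (62.9% lower, against 14.9% of all genes), and none was higher at an unadjusted p below 0.05 in limma. In Ly6Clow macrophages 26 of 33 were lower and 1 higher, led by *Plk2* (-5.05) and *Ptgs2* (-4.73), with a median of -1.96 (78.8% lower, against 22.5%). The kinases and transcription factors that act upstream of the immediate early genes moved less. Of 33 tested in either subset, 4 were higher and 2 lower in Ly6Chi macrophages, led by *Elk3* (1.81), a serum response factor partner, and *Braf* (1.78), and 4 were higher and 6 lower in Ly6Clow macrophages, led by *Mkl2* (1.90) and *Hsf2* (-1.72). Their medians were 0.13 and -0.19. The shares of 12.1% higher and 6.06% lower in Ly6Chi and 12.1% and 18.2% in Ly6Clow macrophages lay below those of all genes.

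Chaperones outside the inducible set were mostly not called. Of 19 tested in either subset, 4 were lower and none higher in Ly6Chi macrophages, led by *Hspa5* (-1.14), the chaperone of the endoplasmic reticulum, and *Dnaja2* (-0.94), which is 21.1% lower against 14.9%. In Ly6Clow macrophages 3 were higher and 1 lower, led by *Dnajb4* (-1.20) and *Hspa4l* (0.80), which is 15.8% and 5.26% against 20.2% and 22.5%. Genes of the integrated and unfolded protein stress responses gave 1 higher and 5 lower of 19 in Ly6Chi macrophages, led by *Ddit3* (-3.42), the pro-apoptotic factor CHOP, and *Dnajb9* (-2.55), which is 5.26% and 26.3%. In Ly6Clow macrophages they gave 1 higher and 6 lower of 18, led again by *Ddit3* (-3.71), with *Slc7a11*, the cystine transporter, at -2.88, which is 5.56% and 33.3%. Of 11 housekeeping genes, 2 were lower in Ly6Chi macrophages (*Gusb*, -1.19, and *Hprt*, -0.71), which is 18.2%, and 2 were higher and 4 lower in Ly6Clow macrophages, led by *B2m* (-1.13) and *Gusb* (-1.04), which is 18.2% and 36.4%. In splenic Ly6Chi macrophages the other early response genes gave 1 higher and 11 lower of 31 (3.23% and 35.5%, against 9.77% and 12.5% of all genes), and in splenic Ly6Clow macrophages 3 higher and 5 lower of 31 (9.68% and 16.1%, against 4.05% and 4.30%). In wild-type Ly6Chi macrophages 19 of 35 were higher and 6 lower in liver than in spleen (54.3% and 17.1%, against 17.1% and 20.7%). The interaction of organ and genotype was called lower for 20 of 35 and higher for none in Ly6Chi (57.1% lower, against 16.0%), and lower for 25 of 36 and higher for 1 in Ly6Clow macrophages (69.4% lower, against 14.7%).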

How the data were processed

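Per the labels, sorted macrophages were lysed, and RNA of good integrity was made into Ion AmpliSeq Transcriptome Mouse libraries and sequenced on an Ion Proton. The authors deposited 1 table of RPM, made by Torrent Suite's AmpliSeqRNA plug-in, and the processing notes name the build mm10. All RPM values (100%) were whole multiples of 1 read within 0.1 reads, which gave the depth of each library. This covers counting error only.

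In R 4.3.3, RPM were scaled by relative log expression within the compared libraries, and genes that reached 1 RPM in 3 or more of these were fitted with limma 3.58.1 (lmFit, eBayes with trend, two-sided) on log2(value + 1). Fold changes are on that scale, which understates those of low genes. P-values were adjusted by Benjamini-Hochberg over every gene tested in a comparison. The fit was tested on simulated data, and no result given here rests on that test. The alternatives were a pseudocount of 0.1, no filter, RPM as deposited, a fit of all 29 libraries together, a block for the replicate number, DESeq2 1.42.0 and edgeR 4.0.16 on the recovered reads, and leaving out each library. Using only replicate 1 of the hepatic wild-type Ly6C groups was chosen after seeing the data.

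Groups came from the labels. Values in every library are given for the 3 most abundant members of each class and the 3 called members that differed most in each comparison of genotypes, and members that went against the others are named. The members and lists were chosen with earlier results of these data known. Every same-numbered pair deviated together with a correlation above 0.1, taken as pairing, only for hepatic *Rnaset2*-/- Ly6Clow against Ly6Chi macrophages (r across genes of 0.53, 0.23 and 0.46).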

Additional observations from a re-analysis of the deposited data

Results flagged for a closer look

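In groups of 4 libraries, 4 of 80 values (the levels of 39 members and their summed share of reads, in 2 groups) had 1 library far from the other 3 by Dixon's criterion at the 95% level, which chance meets in about 1 of 20 groups. *Gadd45b* was at 99.6 RPM in replicate 1 of splenic *Rnaset2*-/- Ly6Clow macrophages, above 52.1 to 59.3 RPM in the other 3 libraries. *Atf4* was at 733 RPM in replicate 4 of the same group, below 777 to 785 RPM in the others. In KCs, *Ier3* was at 2.88 RPM in replicate 3, below 4.92 to 5.32 RPM, and *Ppp1r15a* was at 112 RPM in replicate 2, above 85.7 to 89.9 RPM.

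The difference between genotypes differed between liver and spleen by the interaction test in limma. In Ly6Chi macrophages 28 of 39 members had a lower and 1 a higher hepatic than splenic difference, where 16.0% of all genes tested were called lower and 17.6% higher, with -4.71 for *Egr1*, -3.61 for *Fos*, -3.59 for *Fosb* and 1.75 for *Myc* on the log2 scale. The call of *Myc* was lost in 4 of the settings that leave out 1 library. In Ly6Clow macrophages 37 were lower and 0 higher (14.7% and 12.1% of all genes), with -7.51 for *Fosb*, -6.16 for *Egr1* and -5.41 for *Fos*, and at an unadjusted p below 0.05 limma also gave 0 higher. With only replicate 1 of the hepatic wild-type groups 17 members were lower in Ly6Chi macrophages. Genotype goes with sex in the hepatic libraries, and the 2 cannot be told apart.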

How the results depend on the processing

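Across the alternatives, 6529 log2 fold changes were compared, those of the called members and of some members not called. Of these, 6075 kept their direction and their side of the threshold, 441 lost a call, 13 gained one and 0 changed sign. By genotype they covered 22 members in splenic Ly6Chi and 5 in splenic Ly6Clow macrophages, so most members not called there were not included. The hepatic counts by genotype stayed within 1.5 times of 33 and 37 lower members under each alternative run. Where a count of called members moved by more than that, the cause was not tested.

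With no filter on low genes, no member (0) was higher in *Rnaset2*-/- mice in hepatic or splenic Ly6Clow macrophages. For liver against spleen, 0 were lower in wild-type Ly6Clow macrophages and 0 were higher in *Rnaset2*-/- Ly6Clow macrophages. The counts in the other direction, higher for wild-type and lower for *Rnaset2*-/- Ly6Clow macrophages, stayed within the limit given above. Without the filter, 1 was lower in splenic *Rnaset2*-/- Ly6Clow than Ly6Chi macrophages. In wild-type hepatic Ly6Clow against Ly6Chi macrophages 0 were higher and 1 lower, and 0 were higher in the Ly6Chi interaction. With RPM as deposited, 3 were lower in liver for wild-type Ly6Chi macrophages, 4 and 24 were lower in *Rnaset2*-/- Ly6Chi and Ly6Clow macrophages than in KCs, and 2 were higher and 1 lower in wild-type hepatic Ly6Clow than Ly6Chi macrophages. In 1 fit of all 29 libraries, splenic Ly6Chi macrophages had 0 higher and 10 lower members in *Rnaset2*-/- mice, 0 were lower in liver for wild-type and 2 higher for *Rnaset2*-/- Ly6Clow macrophages, 4 were lower in *Rnaset2*-/- Ly6Chi macrophages than in KCs, 4 and 1 were lower in splenic wild-type and *Rnaset2*-/- Ly6Clow than Ly6Chi macrophages, and 0 were higher in the wild-type hepatic subset comparison. DESeq2 gave 3 higher members by genotype in splenic Ly6Clow macrophages, 2 higher in liver for *Rnaset2*-/- Ly6Clow macrophages, 4 lower in *Rnaset2*-/- Ly6Chi macrophages than in KCs and 3 higher in wild-type hepatic Ly6Clow than Ly6Chi macrophages. edgeR gave 0 higher in liver for *Rnaset2*-/- Ly6Clow macrophages and 1 lower in the wild-type hepatic subset comparison. With only replicate 1 of the hepatic wild-type groups, 1 member was higher in Ly6Chi and 0 in Ly6Clow *Rnaset2*-/- macrophages, 13 were higher and 0 lower in liver for wild-type Ly6Clow macrophages, and 17 were lower in the Ly6Chi interaction. The wild-type hepatic subset comparison then sets 1 library against 1, with its spread taken from the other groups, and its counts of 0 say nothing about the subsets.

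With the replicate number as a block, 2 members were higher by genotype in splenic Ly6Clow macrophages, 6 were higher and 0 lower in splenic *Rnaset2*-/- Ly6Clow than Ly6Chi macrophages, and 3 were higher in wild-type hepatic Ly6Clow than Ly6Chi macrophages, whose same-numbered libraries correlated at 0.60, -0.12 and -0.16 in their deviations. In wild-type liver replicates 2 and 3, but not 1, of both subsets held Y-linked RNA. In the hepatic *Rnaset2*-/- subset comparison, whose libraries were taken as paired, the block gave 25 lower members against 19, and it changed no other count by more than 1.5 times.

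Leaving out 1 library at a time gave 26 to 35 lower and 0 to 1 higher members by genotype in hepatic Ly6Chi, 33 to 37 lower and 0 to 1 higher in hepatic Ly6Clow, 15 to 21 lower in splenic Ly6Chi, and 1 to 3 lower and 0 to 1 higher in splenic Ly6Clow macrophages. Liver against spleen gave 1 to 2 lower in wild-type Ly6Chi, 0 to 1 lower in wild-type Ly6Clow, 8 to 14 lower in *Rnaset2*-/- Ly6Chi and 0 to 3 higher in *Rnaset2*-/- Ly6Clow macrophages. *Rnaset2*-/- Ly6Clow macrophages against KCs gave 6 to 13 lower members. Ly6Clow against Ly6Chi macrophages gave 0 to 2 lower in *Rnaset2*-/- spleen, 0 to 2 higher and 1 to 2 lower in wild-type liver, and 7 to 21 lower in *Rnaset2*-/- liver. The interactions gave 25 to 31 lower and 0 to 1 higher in Ly6Chi and 35 to 37 lower in Ly6Clow macrophages.

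Groups of 3 or 4 libraries, the coupling of hepatic genotype with sex, and RNA of other cell types limit these results. Depth limits low members such as *Fosb* in hepatic *Rnaset2*-/- Ly6Clow macrophages, where values are near the floor of 3 reads.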
